A study of Mus musculus with 33 samples.

Results

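Bone marrow RNA of 3 mice given venetoclax was compared with that of 4 mice given vehicle only, all sampled on day 3 after treatment. These 7 mice are part of a NanoString nCounter series of 33 mice, in which barcoded probes for 750 immune genes were counted in 1 lane per mouse. All were female C57BL/6 wild-type mice of 6-8 weeks. The venetoclax mice received the drug by oral gavage once daily for 2 days, at a dose that the series description gives as 100 mg/ml and the methods give per kg of body weight. The 4 control mice were 2 given the venetoclax vehicle (60% phosal 50 PG, 30% PEG 400 and 10% ethanol) and 2 given the ruxolitinib vehicle (2% DMSO and 30% PEG 300 in water), so neither drug was present in the controls. The venetoclax vehicle was given on the schedule of its drug, whereas ruxolitinib and its vehicle were gavaged 2 times a day for 2 days, so that the pooled controls differ in handling as well as in solvent. Ruxolitinib, a JAK1/2 inhibitor, is given in the series description at 180 mg/ml and was used in the 3 day 3 mice of a further comparison. The labels give each lane as a separate mouse, and RNA came from whole marrow, so the values are averages over all of its cells.

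Venetoclax is a small molecule that occupies the groove of BCL2, the protein that holds back mitochondrial cell death. Lymphocytes lean on BCL2 to survive, B cells in particular, whereas neutrophils and their precursors depend more on MCL1. B cells, dendritic cells and monocytes carry MHC class II, which displays peptides to CD4+ T cells and whose genes are switched on together by the coactivator CIITA. In bulk marrow, fewer cells of a type and less RNA per cell cannot be told apart.

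The 7 lanes held 123429 to 293616 endogenous counts and 65.87% to 79.33% of probes above background, the mean plus 2 SD of the negative control probes in the lane. Counts were scaled by 11 housekeeping probes, and the scaled values are given below as normalised counts. The transcript of S100a8, a protein abundant in neutrophils, took 47.3% to 65.1% of the counts in each lane. Ruxolitinib vehicle mouse 2 stood apart with the 47.3%, against 61.3% to 65.1% in the other 3 vehicle mice, and several values below are also given without it. All 7 lanes were read in 1 run, together with the ruxolitinib mice of day 3.

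No gene passed an adjusted p of 0.05 between venetoclax and both vehicles (0 of 655 genes tested, 0%; edgeR quasi-likelihood test with Benjamini-Hochberg adjustment). DESeq2 and limma also called 0 genes. At an unadjusted p under 0.05, edgeR gave 63 genes (9.62%), of which 31 were lower (4.73%) and 32 higher (4.89%), and DESeq2 and limma gave 54 and 38 genes in either direction. The log2 fold changes that follow are therefore fitted values of the model, with standard errors (SE) derived from its test statistic. None of the genes in this comparison is called as changed. The lowest adjusted p, 0.0842, was shared by H2-Ob, H2-Ab1 and Oasl1, which were lower after venetoclax, and Gzma, which was higher. Without ruxolitinib vehicle mouse 2, 3 genes passed: H2-Ob (adjusted p = 0.025) and Oasl1 (adjusted p = 0.0457) were lower and Clec4a2 was higher (adjusted p = 0.0457). Scaling by total count in place of housekeeping probes called H2-Ob, Oasl1 and Tlr1 (adjusted p = 0.0488 each), and it shifted the median of all genes by -0.17 on the log2 scale.

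The genes of MHC class II presentation had the lowest median of the 23 lists on day 3, although single genes of other lists were lower. All 9 tested members had a lower mean after venetoclax, where 49.5% of all genes did, and their median log2 fold change was -0.79 against 0.00 for all genes. In 6 of the 9 the venetoclax mice lay entirely below the vehicle mice, as 5.34% of all genes did, and the same number reached an unadjusted p under 0.05. The direction of the 9 genes was the same under each scaling tried, with medians from -0.94 (total count) to -0.70 (all 20 housekeeping probes). Without ruxolitinib vehicle mouse 2 the median was -0.69, 5 genes reached an unadjusted p under 0.05 and 8 of the 9 had a lower mean.

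H2-Ab1 and H2-Aa encode the beta and alpha chains of I-A, the class II molecule of this strain. H2-Ab1 had normalised counts of 167, 189 and 135 in the 3 venetoclax mice, of 325 and 263 in the venetoclax vehicle mice and of 224 and 320 in the ruxolitinib vehicle mice. The groups did not overlap, and the log2 fold change was -0.79 (SE 0.21, adjusted p = 0.0842 with edgeR). H2-Aa was 159, 184 and 186 after venetoclax, 271 and 291 after the venetoclax vehicle and 189 and 548 after the ruxolitinib vehicle. The highest value belongs to ruxolitinib vehicle mouse 2, and the lowest vehicle value is close to the venetoclax mice. Its log2 fold change was -0.88 (SE 0.32, adjusted p = 0.252 with edgeR) and -0.51 without that mouse.

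H2-Eb1 is annotated as the beta chain of I-E, whose alpha chain C57BL/6 mice do not make. Its normalised counts were 155, 173 and 134 after venetoclax, 276 and 262 after the venetoclax vehicle and 209 and 312 after the ruxolitinib vehicle, a log2 fold change of -0.79 (SE 0.25, adjusted p = 0.14 with edgeR). Here too every venetoclax mouse was below every vehicle mouse. Cd74, the invariant chain that guides class II molecules to the endosome, overlapped between groups at 463, 434 and 392 after venetoclax against 468, 492, 399 and 813 in the vehicle mice. Its log2 fold change of -0.34 (SE 0.28, adjusted p = 0.768 with edgeR) became -0.08 without ruxolitinib vehicle mouse 2, the mouse with 813.

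The genes of peptide loading showed the same split between members. H2-Ob, the beta chain of H2-O, which restrains peptide loading in B cells, had 55.7, 59.7 and 35.3 normalised counts after venetoclax. It had 150 and 98.7 in the venetoclax vehicle mice and 105 and 73.0 in the ruxolitinib vehicle mice. This was the gene with the lowest p of the comparison, at a log2 fold change of -1.09 (SE 0.26, adjusted p = 0.0842 with edgeR). H2-DMb2, a beta chain of the peptide-loading factor H2-M, was 16.5, 20.6 and 20.2 after venetoclax, 34.6 and 30.0 after the venetoclax vehicle and 28.2 and 60.0 after the ruxolitinib vehicle. All 3 venetoclax mice were below the vehicle mice, and the log2 fold change was -1.0 (SE 0.28, adjusted p = 0.0933 with edgeR), or -0.69 without ruxolitinib vehicle mouse 2. H2-DMb1, its close paralogue, which was named after its values were seen, overlapped between groups at 15.8 to 24.7 against 21.6 to 30.6, a log2 fold change of -0.33 (SE 0.26). Whether the probes of these paralogues share RNA was not tested. H2-Dma, the alpha chain of H2-M and also named after its values were seen, was the class II gene nearest to 0, at 47.0, 48.4 and 56.2 against 43.8, 51.1, 56.3 and 72.2. Its log2 fold change was -0.14 (SE 0.29, adjusted p = 0.956 with edgeR), or 0.01 without ruxolitinib vehicle mouse 2 and 0.08 against the venetoclax vehicle alone.

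Ciita, the coactivator, was the class II gene with the fewest counts. It was 8.71, 9.27 and 6.48 after venetoclax, 20.8 and 14.2 after the venetoclax vehicle and 17.1 and 16.2 after the ruxolitinib vehicle. These groups did not overlap, and the log2 fold change was -1.05 (SE 0.31, adjusted p = 0.111 with edgeR). A two-sided exact permutation test over 35 arrangements of the 3 and 4 mice gave p = 0.0571 for Ciita, as it must for any gene whose groups do not overlap, and this is the smallest p that the design allows.

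**Figure D1:**
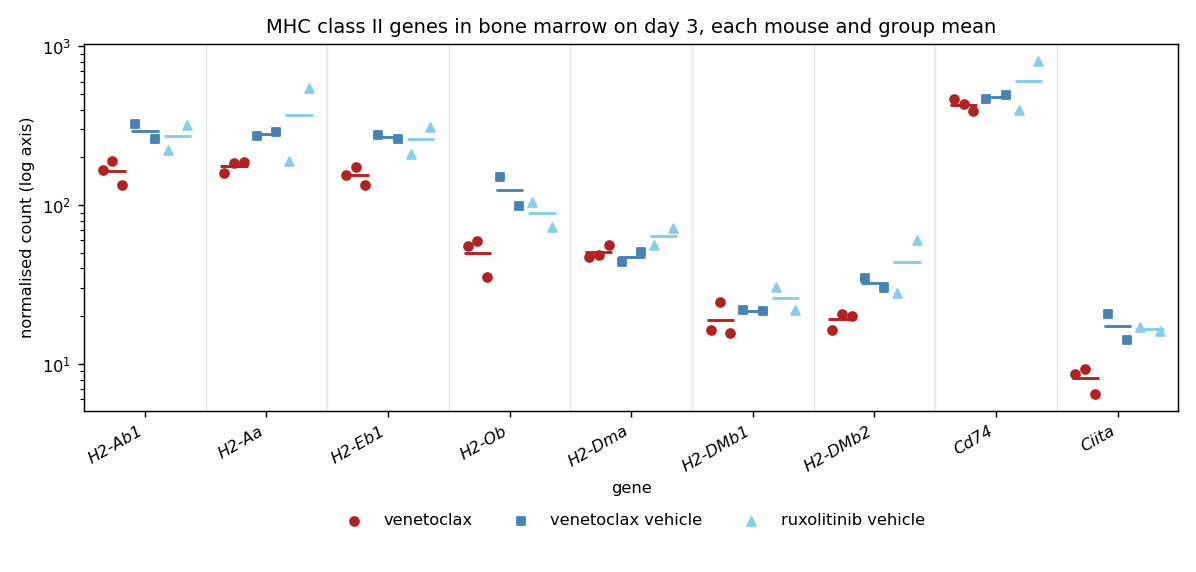
Normalised counts (log axis) of the 9 MHC class II genes on day 3 in each venetoclax mouse (3 circles), venetoclax vehicle mouse (2 squares) and ruxolitinib vehicle mouse (2 triangles), with a line at each group mean. The circles lie below all vehicle mice in 6 genes and overlap them in Cd74, H2-DMb1 and H2-Dma.

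Because these genes had lower means together, the stretch before the start site that class II genes share is shown. CIITA is held at class II promoters by factors bound to the X box and the Y box, the latter an inverted CCAAT element. The RefSeq promoter table (mouse build GRCm38.p6) has a window of 250 bases before to 50 bases after the start for 6 of the 9 genes, and TGATTGG, the Y box letters searched on both strands (CCAATCA on the other), occurs in a window of 5 of them and in none of H2-Dma. The same letters occur in 7.82% of the 32851 windows in the table and in 8.83% of the 600 windows of genes tested here. The 80 bases around the match are given 5′ to 3′ on the gene's strand, with the match in capitals.
H2-Aa, chr17:34287852-34287931, minus strand: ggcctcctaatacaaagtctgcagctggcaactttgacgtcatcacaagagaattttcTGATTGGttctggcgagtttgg
H2-Eb1, chr17:34305748-34305827, plus strand: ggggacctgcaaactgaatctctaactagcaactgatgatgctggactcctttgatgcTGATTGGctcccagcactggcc
H2-Ob, chr17:34238788-34238867, plus strand: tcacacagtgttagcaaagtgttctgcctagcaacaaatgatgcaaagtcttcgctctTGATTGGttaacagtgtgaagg
H2-DMb2, chr17:34145099-34145178, plus strand: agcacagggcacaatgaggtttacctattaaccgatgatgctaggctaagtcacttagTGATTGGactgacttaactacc
H2-DMb1, chr17:34153070-34153149, plus strand: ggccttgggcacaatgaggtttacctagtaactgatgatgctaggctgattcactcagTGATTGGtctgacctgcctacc

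The match starts 50 bases before the start site in H2-Aa, 61 in H2-Eb1, 59 in H2-Ob, 92 in H2-DMb2 and 63 in H2-DMb1. The stretches of H2-DMb1 and H2-DMb2 have the same base at 67 of 80 positions, although the log2 fold changes of these paralogues were -0.33 and -1.0. A match of letters is a description of the window and not a measured binding site.

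B cell genes differed among themselves. Of 18 tested genes of the pan-B and mature B cell list, 13 had a lower mean after venetoclax, where 49.5% of all genes did, and 4 of them reached an unadjusted p under 0.05, as 4.73% of all genes did. The median log2 fold change was -0.28. Their summed normalised counts were 1030 to 1490 in the venetoclax mice and 1300 to 1730 in the vehicle mice. The part of B cell number in the class II result was not tested.

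Surface receptors of B cells did not share a direction. Ms4a1, which encodes CD20, Cd79b, a signalling chain of the B cell receptor, Tnfrsf13c, the receptor of the survival factor BAFF, and Cd40, a costimulatory receptor, had log2 fold changes of -0.02 (SE 0.30), 0.10 (SE 0.31), 0.10 (SE 0.40) and 0.20 (SE 0.30). Cd22, an inhibitory receptor of the B cell receptor, had 59.2, 59.7 and 28.8 normalised counts after venetoclax, 151 and 73.2 after the venetoclax vehicle and 85.7 and 64.1 after the ruxolitinib vehicle. The groups did not overlap, though the margin between 59.7 and 64.1 was small, and the log2 fold change was -0.92 (SE 0.30, adjusted p = 0.177 with edgeR). Leaving out 1 mouse moved this value between -1.09 and -0.6. Btla, an inhibitory receptor of B and T cells, was 32.2, 36.0 and 25.2 after venetoclax against 74.9, 52.5, 42.9 and 52.7 in the vehicle mice. It was lower in every venetoclax mouse, by a log2 fold change of -0.85 (SE 0.24, adjusted p = 0.0933 with edgeR). Ccr6, a chemokine receptor of B cells and some T cells, was above background in 0 of 3 venetoclax lanes and 3 of 4 vehicle lanes, at 3.48, 3.09 and 1.44 against 16.1, 8.84, 2.45 and 9.73 normalised counts. The groups overlapped, and counts within background do not measure the size of the difference.

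The B lineage factor depended on the mouse. Pax5, the transcription factor that fixes B cell identity, was 157, 258 and 104 after venetoclax against 269, 166, 201 and 163 in the vehicle mice. Venetoclax mouse 1, at 157, was just below the lowest vehicle value of 163. Venetoclax mouse 2 was within the vehicle range and venetoclax mouse 3 was the lowest of the 7 mice. The log2 fold change was -0.21 (SE 0.28), and it ranged from -0.61 to 0.06 when 1 mouse was left out.

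B cell precursor genes were not lower as a group. The 4 tested members had log2 fold changes from -0.30 to 0.48, and their summed normalised counts were 274 to 490 after venetoclax and 314 to 411 in the vehicle mice. Igll1, the surrogate light chain of the pre-B cell receptor, was 137, 148 and 120 after venetoclax, 70.3 and 104 after the venetoclax vehicle and 104 and 107 after the ruxolitinib vehicle. All 3 venetoclax mice were above the vehicle mice, as in 2.29% of all genes, with a log2 fold change of 0.48 (SE 0.23, adjusted p = 0.512 with edgeR). Rag1, which cuts DNA to assemble antigen receptor genes, overlapped at 75.7, 124 and 42.5 against 69.2, 53.0, 64.9 and 44.6, a log2 fold change of 0.47 (SE 0.27). This value was 0.04 without venetoclax mouse 2, the mouse with 124, and 0.79 without venetoclax mouse 3. Il7r, the receptor of the growth factor of early lymphocytes, was 134, 158 and 82.1 against 167, 139, 181 and 127. Venetoclax mouse 2 was the highest of its group in all of these precursor genes and mouse 3 the lowest.

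T cell genes were the list with the next lowest median. Of 22 tested genes of the T cell receptor complex and its coreceptors 20 had a lower mean after venetoclax, against 49.5% of all genes, and 7 of them reached an unadjusted p under 0.05, against 4.73% of all genes. The median log2 fold change was -0.61. The summed normalised counts of the list did not overlap, at 166 to 204 after venetoclax and 249 to 329 in the vehicle mice. Cd3d, a signalling chain of the T cell receptor, was 6.96, 22.7 and 20.9 after venetoclax, 40.4 and 33.4 after the venetoclax vehicle and 22 and 38.1 after the ruxolitinib vehicle. Only 1 vehicle mouse reached into the venetoclax range, and the log2 fold change was -1.0 (SE 0.31, adjusted p = 0.123 with edgeR). This value ranged from -1.23 to -0.64 when 1 mouse was left out. Thy1, a surface protein of T cells and early progenitors, was 13.1, 6.18 and 10.8 against 8.07 and 15.2 after the venetoclax vehicle and 19.6 and 30.8 after the ruxolitinib vehicle (log2 fold change -0.86, SE 0.33). Its log2 fold change was -0.49 without ruxolitinib vehicle mouse 2, the mouse with 30.8, and -0.31 against the venetoclax vehicle alone, and the vehicles themselves differed 2.04-fold (unadjusted p = 0.00857 in the edgeR fit, adjusted p = 0.998).

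The chains of CD8, the coreceptor of cytotoxic T cells, were at the limit of detection. Cd8a was above background in 0 of 3 venetoclax lanes and 4 of 4 vehicle lanes, at 3.48, 1.03 and 0.72 against 13.8, 6.88, 6.12 and 8.92 normalised counts. Cd8b1 was above background in 0 of 3 venetoclax lanes and 3 of 4 vehicle lanes, at 1.74, 2.06 and 0.72 against 2.31, 5.40, 4.90 and 6.49. The fitted log2 fold changes of -2.28 (SE 0.65, adjusted p = 0.0933 with edgeR) and -1.73 (SE 0.61) include counts within background and so do not measure the size of the difference.

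The cytotoxic list was mixed. Of 29 tested genes 17 had a lower mean, with a median log2 fold change of -0.15 and summed normalised counts of 450 to 530 after venetoclax against 509 to 592. Gzma, a granule protease of NK cells and cytotoxic T cells, had a higher mean after venetoclax. It was 41.8, 27.8 and 42.5 after venetoclax, 11.5 and 22.6 after the venetoclax vehicle and 9.80 and 18.7 after the ruxolitinib vehicle. Every venetoclax mouse was above every vehicle mouse, and the log2 fold change of 1.16 (SE 0.29, adjusted p = 0.0842 with edgeR) corresponds to 2.24-fold. Il2rb, the receptor subunit shared by IL-2 and IL-15 that NK cells need, overlapped at 128, 160 and 85.7 against 232, 155, 190 and 126 (log2 fold change -0.49, SE 0.24). Klrg1, a receptor of mature NK cells, was above background in 0 of 3 venetoclax lanes and 3 of 4 vehicle lanes. Klrb1 was above background in 0 of the 7 lanes, so no difference was detectable at this depth.

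**Figure D2:**
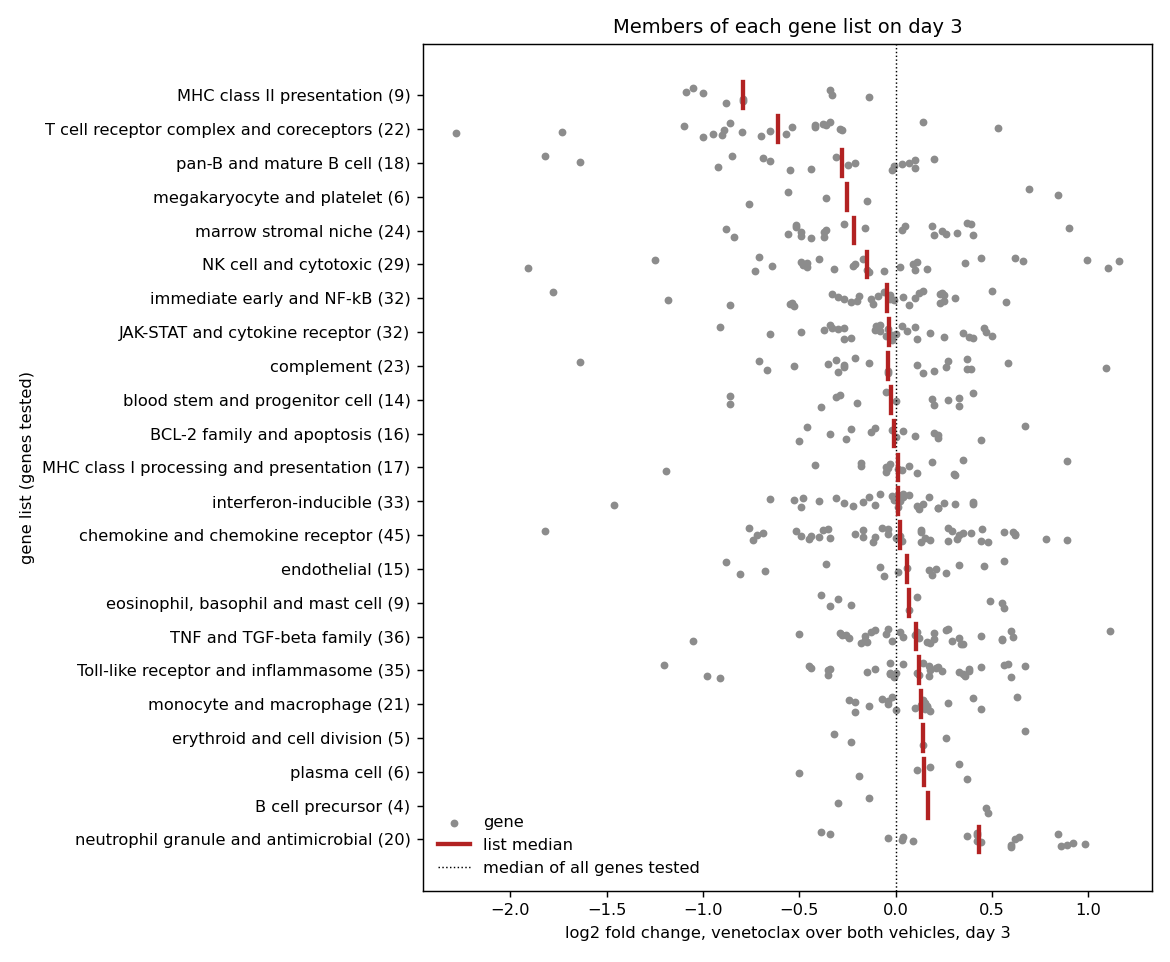
Log2 fold change of each tested gene (grey points) in 23 gene lists, venetoclax over both vehicles on day 3, with the list median (red line), the number of genes tested in brackets and the median of all genes (dotted line). MHC class II presentation has the lowest median at -0.79 and the neutrophil list the highest at 0.43. Some genes belong to more than 1 list.

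Neutrophil genes had the highest median. Of 20 tested genes 17 had a higher mean after venetoclax, where 331 of all 655 genes did, and 8 of them reached an unadjusted p under 0.05, as 4.89% of all genes did. The median log2 fold change was 0.43. The summed normalised counts overlapped, at 98700 to 137000 after venetoclax and 80200 to 121000 in the vehicle mice. S100a8, the most abundant transcript of each lane, had a log2 fold change of 0.09 (SE 0.28). The count of 8 rested on the controls, the scaling and the model: it was 1 with the replicate number as a block, 12 without ruxolitinib vehicle mouse 2, 0 against the ruxolitinib vehicle alone, 0 with total count scaling and 13 with all 20 housekeeping probes. The median was 0.64 without ruxolitinib vehicle mouse 2, 0.33 against the ruxolitinib vehicle alone and 0.23 with total count scaling, where 14 of the 20 genes had a higher mean. Across all genes, the 32 higher genes became between 7 and 61 when 1 of the 7 mice was left out, moving by more than 1.5 times for each of them, whereas the 31 lower genes became between 24 and 34.

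The spread among the venetoclax mice was wide for these genes. Camp, the antimicrobial cathelicidin of secondary granules, was 8260, 5330 and 10500 after venetoclax, 4670 and 5480 after the venetoclax vehicle and 4980 and 6110 after the ruxolitinib vehicle. Ltf, the lactoferrin of the same granules, was 124, 61.8 and 194 against 53.0, 60.4, 50.2 and 116. Cxcr2, the receptor by which neutrophils follow chemokines out of the marrow, was 192, 123 and 250 against 110, 102, 127 and 154. In all of these genes venetoclax mouse 2 was within the vehicle range and mouse 3 was the highest of the 7 mice. The log2 fold changes were 0.60 for Camp (SE 0.23, adjusted p = 0.32 with edgeR), 0.86 for Ltf (SE 0.35) and 0.62 for Cxcr2 (SE 0.25). Without venetoclax mouse 3 they were 0.35, 0.40 and 0.36, and Ltf was 1.21 without ruxolitinib vehicle mouse 2, the vehicle mouse with 116. Fpr2, a formyl peptide receptor, was the neutrophil gene without overlap, at 181, 137 and 232 against 112, 105, 129 and 127, a log2 fold change of 0.64 (SE 0.26, adjusted p = 0.386 with edgeR).

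Mouse 3 thus combined the highest Camp, Ltf, Cxcr2 and Fpr2 with the lowest Pax5, Cd22 and Btla, and mouse 2 the lowest values of these neutrophil genes in its group with the highest Pax5. Of the 9 class II genes 6 were highest in mouse 2, and 5 of these (H2-Ab1, H2-Eb1, H2-Ob, H2-DMb1 and Ciita) followed the order of Pax5, with mouse 2 highest and mouse 3 lowest. H2-Aa and H2-Dma were highest in mouse 3 and Cd74 in mouse 1. The share of all genes that follow the order of Pax5 was not counted, and a link of the class II genes to Pax5 was not tested.

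**Figure D3:**
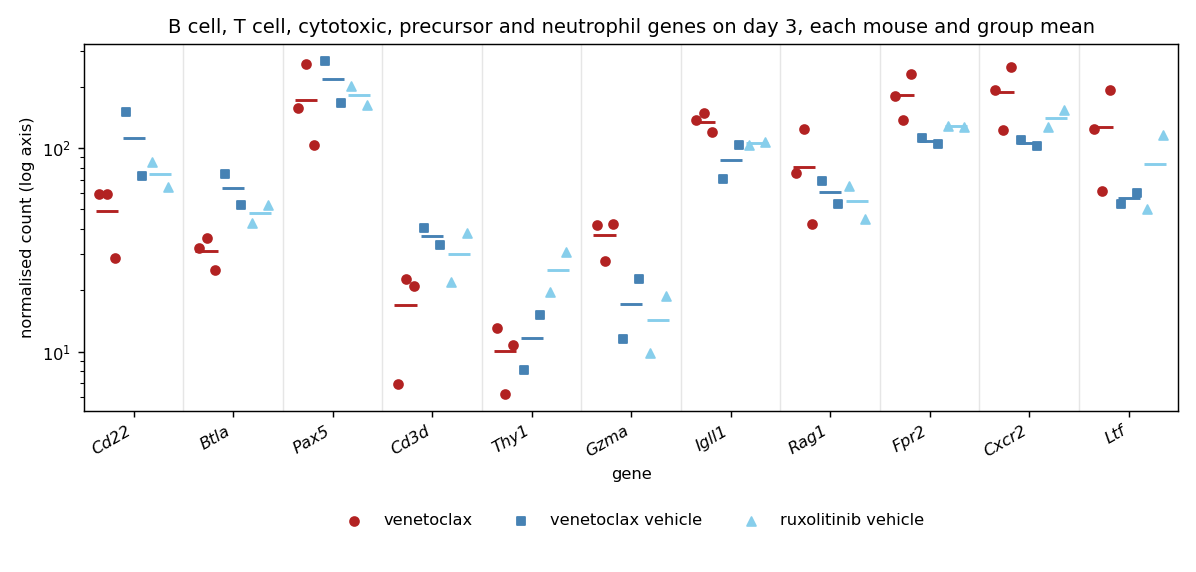
Normalised counts (log axis) of B cell, T cell, cytotoxic, precursor and neutrophil genes on day 3 in each venetoclax mouse (3 circles), venetoclax vehicle mouse (2 squares) and ruxolitinib vehicle mouse (2 triangles), with a line at each group mean. Circles and vehicle mice separate for Cd22, Btla, Gzma, Igll1 and Fpr2 and overlap for the other genes.

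Interferon-inducible genes had no common direction. Of 33 tested genes 15 had a lower mean and 18 a higher mean, with a median log2 fold change of 0.01. Under total count scaling 26 were lower and 7 higher, with a median of -0.17, which was also the median of all genes. Oasl1, an antiviral relative of the oligoadenylate synthetases, had the lowest fold change. It had 8.71, 5.15 and 5.04 normalised counts after venetoclax, 20.8 and 18.2 after the venetoclax vehicle and 20.8 and 11.4 after the ruxolitinib vehicle. The venetoclax mice were below all vehicle mice, with a log2 fold change of -1.46 (SE 0.38, adjusted p = 0.0842 with edgeR). Its raw counts in venetoclax mice 1, 2 and 3 were 10, 5 and 7, against lane backgrounds of 5.7, 4.83 and 2.18. Counts this close to background limit how well the size of the difference is measured. Bst2, which tethers budding virus to the cell surface, was 111, 125 and 78.5 against 164, 152, 158 and 131 (log2 fold change -0.53, SE 0.19, adjusted p = 0.252 with edgeR).

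Other interferon genes were closer to the vehicle mice. The log2 fold change was 0.12 for Rsad2, 0.11 for Oas2 and 0.01 for Isg15, with SEs of 0.25, 0.24 and 0.31, and -0.49 for Ifit3 (SE 0.32). Tap1, the peptide transporter of MHC class I, was 117, 151 and 106 after venetoclax against 121, 130, 125 and 117 (log2 fold change 0.01, SE 0.17), and the 17 tested genes of class I presentation had a median of 0.01. Under total count scaling the values of Rsad2, Oas2, Isg15 and Tap1 were below 0. The interferon genes Ifna1, Ifnb1 and Ifng were above background in 0 of the 7 lanes.

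The transcript of the drug target was among the genes measured. Bcl2 had 24.4, 27.8 and 24.5 normalised counts after venetoclax, 43.8 and 34.9 after the venetoclax vehicle and 34.3 and 32.4 after the ruxolitinib vehicle. All 3 venetoclax mice were below the vehicle mice, and the log2 fold change was -0.50 (SE 0.29, adjusted p = 0.536 with edgeR). Bcl2l1, which encodes the related survival protein BCL-XL, was 81.8, 61.8 and 57.6 against 39.2, 48.6, 47.8 and 60.0, a log2 fold change of 0.44 (SE 0.21, unadjusted p = 0.0438 in the edgeR fit). With 1 mouse left out this fold change lay between 0.28 and 0.56. Over the 16 tested genes of the BCL-2 family and apoptosis 8 had a lower and 8 a higher mean.

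Further genes with all venetoclax mice on 1 side belong to other groups. All but Ms4a2 were named because of this separation, which is therefore no test of them. Over all genes tested, the groups separated in 5.34% on the lower side and in 2.29% on the higher side. Tlr1, a receptor for bacterial lipopeptides, was 20.0, 9.27 and 13.7 after venetoclax against 32.3, 23.1, 29.4 and 26.8 in the vehicle mice, a log2 fold change of -0.91 (SE 0.28, adjusted p = 0.115 with edgeR). Cd55, which protects cells from complement, was 42.7, 40.2 and 41.8 against 86.5, 59.4, 86.9 and 44.6 (log2 fold change -0.71, SE 0.26). The venetoclax mice lay close together for Cd55 and the vehicle mice did not. Ppbp, a chemokine of platelets, was 56.6 to 71.4 against 71.5 to 174, and Cd83, a marker of activated B and dendritic cells, was 14.4 to 16.6 against 17.7 to 30.0. On the higher side, Il17ra, the IL-17 receptor, was 120 to 173 against 101 to 111 (log2 fold change 0.50, SE 0.21), Il2ra 25.9 to 36.0 against 19.2 to 24.5 and Notch1 68.0 to 94.0 against 54.5 to 67.3. Ms4a2, a receptor chain of mast cells and basophils, was 19.6 to 27 against 15 to 17.8 (log2 fold change 0.55, SE 0.26). Its list of eosinophil, basophil and mast cell genes had no common direction. Of the 9 tested members 4 had a lower and 5 a higher mean, with a median log2 fold change of 0.07. Under total count scaling and all housekeeping probes the single genes named in this paragraph had the same direction. Separation of the mice was read only from the values scaled by 11 housekeeping probes.

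The 2 vehicles were compared with each other, since they were pooled. No gene passed between them on day 3 (0%), and 16 reached an unadjusted p under 0.05 (2.44%) in the edgeR fit of 13 groups. DESeq2 and limma also called none, with 7 and 8 genes at an unadjusted p under 0.05. With 2 mice in each group this does not show that the vehicles act alike: the log2 difference of the ruxolitinib vehicle from the venetoclax vehicle was 0.40 for H2-Aa (SE 0.41), 0.51 for H2-DMb2 (SE 0.34) and -0.47 for H2-Ob (SE 0.33). Against the venetoclax vehicle alone 8 of the 9 class II genes were lower after venetoclax, with a median log2 fold change of -0.74, and against the ruxolitinib vehicle alone all 9 were lower with a median of -0.77.

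Venetoclax and ruxolitinib were compared directly on day 3, over 3 mice of each. Here 6 genes passed the adjusted threshold (0.916% of 655). Ruxolitinib mouse 1 had a shallow lane of 26881 endogenous counts, and only 33.6% of its probes were above background, among which Igll1, Rag1 and Gzma were not (6, 6 and 2 raw counts against a background of 7.21). Igll1 was 33, 38.4 and 8.68 normalised counts in the ruxolitinib mice and 120 to 148 in the venetoclax mice, and the log2 difference was 2.28 (SE 0.30, adjusted p = 2.84e-06 with edgeR). Rag1 was 33, 20.2 and 12.4 after ruxolitinib against 42.5 to 124 after venetoclax, a log2 difference of 2.06 (SE 0.36, adjusted p = 0.000417 with edgeR). Both precursor genes were higher in every venetoclax mouse than in any ruxolitinib mouse, and both passed whichever of the 6 mice was left out. Leaving out 1 mouse moved the log2 difference of Igll1 between 1.85 (without ruxolitinib mouse 3) and 3.24 (without ruxolitinib mouse 2).

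Ruxolitinib was set against the same 4 vehicle mice, so that both sides of these differences can be read. In that comparison 9 genes passed (1.37% of 655), among them Igll1 at a log2 fold change of -1.80 (SE 0.29, adjusted p = 0.000191 with edgeR), Rag1 at -1.59 (SE 0.35, adjusted p = 0.00679) and Pax5 at -1.59 (SE 0.32, adjusted p = 0.0034). Venetoclax against vehicle gave 0.48, 0.47 and -0.21 for these genes, none of which passed. For Gzma, H2-DMb2 and Isg20 the ruxolitinib values were -0.51 (SE 0.37), 0.31 (SE 0.26) and 0.56 (SE 0.18), and these genes passed against vehicle with neither drug.

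The other 4 genes between the drugs depended on single mice and on the processing. Gzma was 11, 13.8 and 7.44 after ruxolitinib against 27.8 to 42.5, a log2 difference of 1.68 (SE 0.35, adjusted p = 0.00744 with edgeR) that includes the count within background of ruxolitinib mouse 1. It passed without that mouse, but not without venetoclax mouse 1 or without ruxolitinib mouse 3. Pax5 was 93.6, 54.2 and 68.2 against 104 to 258 (log2 difference 1.39, SE 0.33, adjusted p = 0.0243 with edgeR). H2-DMb2 was 44, 49.9 and 45.9 against 16.5 to 20.6, lower after venetoclax by a log2 difference of -1.31 (SE 0.30, adjusted p = 0.0188 with edgeR). Neither Pax5 nor H2-DMb2 passed without venetoclax mouse 1, venetoclax mouse 2, ruxolitinib mouse 2 or ruxolitinib mouse 3. Isg20, an interferon-inducible exonuclease, was 237, 191 and 242 after ruxolitinib against 124 to 133 (log2 difference -0.78, SE 0.20, adjusted p = 0.0336 with edgeR), and of the fits without 1 mouse it passed only in that without ruxolitinib mouse 2. Over 9 other settings Isg20 passed in 4, and was lost with TMM scaling, all housekeeping probes, DESeq2, limma and without the shallow lanes. Total count scaling lost Gzma and Pax5, and limma lost Pax5 and H2-DMb2, whereas Igll1 and Rag1 passed in all 9. Without the shallow lane of ruxolitinib mouse 1, 8 genes passed, among them H2-Aa and H2-Ab1, which were lower after venetoclax.

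**Figure D4:**
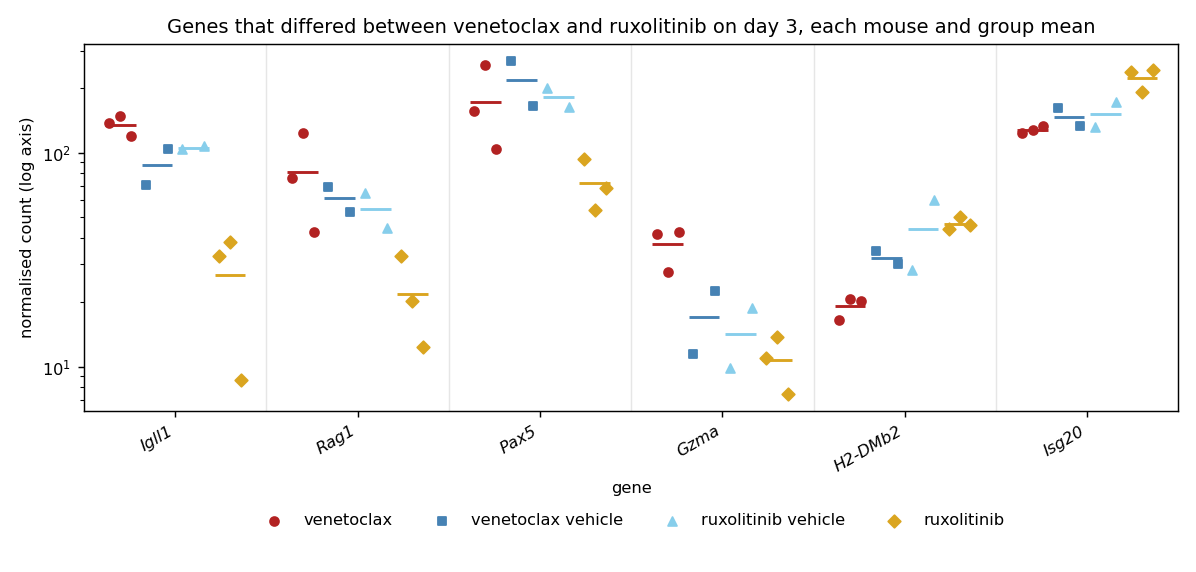
Normalised counts (log axis) on day 3 of the 6 genes that passed between venetoclax and ruxolitinib, in each venetoclax, venetoclax vehicle, ruxolitinib vehicle and ruxolitinib mouse, with a line at each group mean. The ruxolitinib mice lie below the venetoclax mice for Igll1, Rag1, Pax5 and Gzma and above them for H2-DMb2 and Isg20.

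The change on day 3 was then set beside those on days 1 and 7, each within its own run and against its own 4 vehicle mice. Venetoclax day 1 mouse 1 had a shallow lane of 18056 endogenous counts. On day 1, 26 genes passed (3.97%), 6 of them class II genes, and the median log2 fold change of the 9 class II genes was -1.29. On day 7, 1 gene passed (0.153%), and the median of the same 9 genes was -0.57, with 8 of the 9 fold changes below 0. H2-Aa was -1.68 on day 1 (SE 0.35), -0.88 on day 3 and -0.57 on day 7 (SE 0.31). Ciita was -1.42 on day 1 (SE 0.41), -1.05 on day 3 and -0.62 on day 7 (SE 0.35). The day 3 value lay between those of days 1 and 7 for 4 of the 9 genes, H2-Aa, H2-Ab1, H2-DMb2 and Ciita. For 3 genes it was the nearest to 0 of the days: H2-Eb1 was -1.46, -0.79 and -0.94 on days 1, 3 and 7, Cd74 was -1.29, -0.34 and -0.62, and H2-DMb1 was -0.52, -0.33 and -0.45. H2-Ob was lowest on day 3, at -0.80, -1.09 and -0.45, as was H2-Dma, which stayed within its SE of 0 on each day (0.16, SE 0.33; -0.14, SE 0.29; 0.00, SE 0.30). The difference in change between days 3 and 1 did not pass for any of the 9, and was 0.80 for H2-Aa (SE 0.46, adjusted p = 0.636 with edgeR) and 0.37 for Ciita (SE 0.53).

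No gene passed the test of the change on day 3 minus the change on day 1 (0 of 655, 0%), and 61 reached an unadjusted p under 0.05 (9.31%) in the edgeR fit. DESeq2 and limma called 0 genes as well, with 47 and 64 at an unadjusted p under 0.05. Rsad2, which fell on day 1 by 1.13 on the log2 scale (SE 0.29, adjusted p = 0.0177 with edgeR), had a difference of 1.25 between the days (SE 0.38, adjusted p = 0.31 with edgeR). Isg20 fell on day 1 by 1.00 on the log2 scale (SE 0.20, adjusted p = 0.00303 with edgeR) and differed from the vehicle mice by -0.22 (SE 0.18) on day 3, a difference in change of 0.78 (SE 0.27, adjusted p = 0.331 with edgeR). Without ruxolitinib vehicle mouse 2, 1 gene passed this test, Xcl1, a chemokine of NK and CD8+ T cells.

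Igll1 was the gene whose change differed between days 3 and 7 (1 of 655, 0.153%). The venetoclax mice averaged 135 ± 14.1 (SD, n = 3) and the vehicle mice 96.4 ± 17.4 (SD, n = 4) on day 3. On day 7 they averaged 52.4 ± 11.6 (SD, n = 3) and 135 ± 22.9 (SD, n = 4). Its mean was above that of the vehicle mice on day 3, which did not pass the test, and it fell on day 7 by 1.47 on the log2 scale (SE 0.26, adjusted p = 0.00186 with edgeR). The difference between these changes was 1.94 (SE 0.35, adjusted p = 0.00193 with edgeR) and passed without any 1 of the 7 mice of day 3, but not with total count scaling (adjusted p = 0.0867) or limma. Rag1 had log2 fold changes of 0.47 on day 3, a value that rests on venetoclax mouse 2, and 0.55 on day 7 (SE 0.30). Gzma was 0.20 on day 1 (SE 0.35), 1.16 on day 3 and 0.85 on day 7 (SE 0.33), and its difference between days 3 and 1 was 0.97 (SE 0.45, adjusted p = 0.5 with edgeR).

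**Figure D5:**
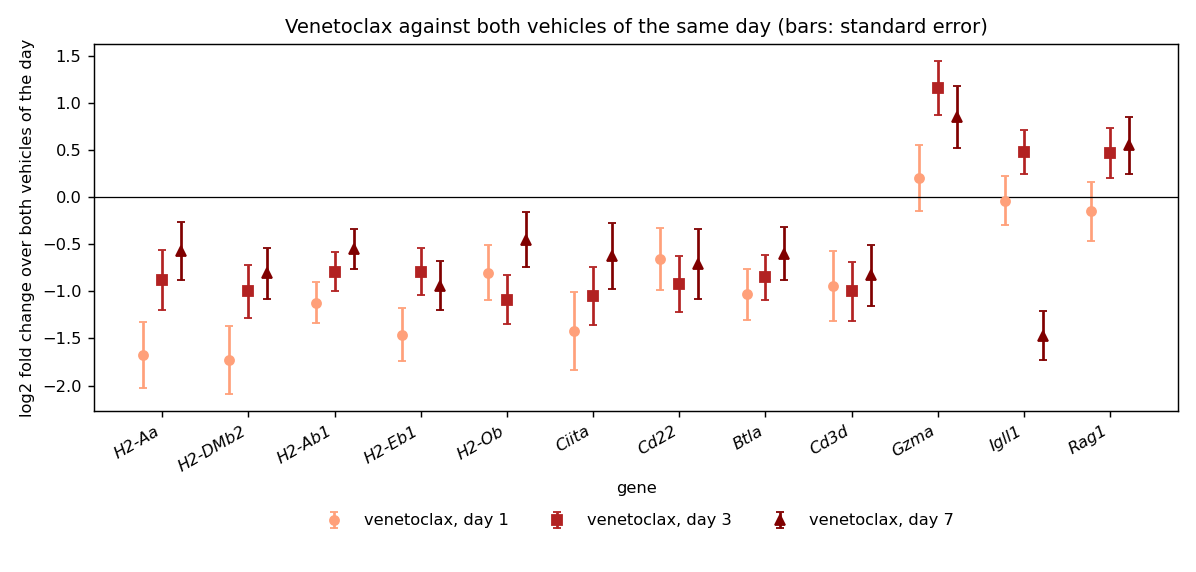
Log2 fold change of venetoclax over both vehicles of the same day, with its standard error (bars), for 12 genes on days 1, 3 and 7. The 6 class II genes plotted lie below 0 on each day, and Igll1 is above 0 on day 3 and at -1.47 on day 7.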

How the data were processed

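Whole bone marrow RNA was hybridised to NanoString nCounter probes, 1 lane per mouse. The authors deposited raw barcode counts of 750 endogenous, 20 housekeeping, 8 negative and 6 positive control probes without normalisation, and their own analysis used nCounter Advanced Analysis 2.0.115. Mice were grouped by the deposited labels. The run of day 3 has Day 2 in its header, and the labels were followed. For scaling, the geometric mean of those 11 housekeeping probes was taken that exceeded background in all 33 lanes. Testing was limited to the 655 of 750 genes with a count over background in 2 lanes or more. The fit was edgeR 4.0.16 (quasi-likelihood, R 4.3.3) with 10 group means, pooling both vehicles of a day (23 residual degrees of freedom, coefficient of biological variation 19.8%), and Benjamini-Hochberg adjustment ran over all genes tested. The vehicles were compared in a model of 13 groups. Alternatives were other scalings, tests (DESeq2 1.42.0, limma 3.58.1), filters and controls, a replicate block and each mouse left out. The test was checked on simulated counts in which 200 of 655 genes were changed. It called 61.2% of the 2-fold and 92.8% of the 4-fold changes, and 86.4% of the 2-fold changes at a mean count of 20 or more. Of the genes it called, 95.6% had been changed. True changes of 2-fold can therefore be missed. Fold changes of low counts carry the most counting error.

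Genes described were drawn from those that passed a test, those whose groups did not overlap (mean normalised count 20 or more), those the study names, Bcl2, and the lowest p-values of each list. H2-DMb1, H2-Dma, Clec4a2, Ms4a1, Cd79b, Tnfrsf13c and Cd40 were added after their values were seen. The members and the gene lists were chosen with earlier results of these data known. Tables and permutation tests were made in Python 3.11.15 with pandas 2.3.3, numpy 2.4.6 and scipy 1.17.1. Symbols were matched to RefSeq for 734 genes and through a synonym for 8. Results of some genes that this rule selects are not reported here.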

Additional observations from a re-analysis of the deposited data

Results flagged for a closer look

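Among the 4 vehicle mice of day 3, 1 mouse stood far from the other 3 in 5 of 65 genes checked, where chance alone gives about 1 in 20. The gap to the nearest mouse was 0.967 of the range for H2-DMb1 and 0.92 for Igll1, where venetoclax vehicle mouse 1 was low at 70.3. It was 0.866 for Klrg1, 0.845 for Ltf, where ruxolitinib vehicle mouse 2 was high at 116, and 0.875 for Eng.

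The venetoclax change of Igll1 differed between days 3 and 7, by 1.94 on the log2 scale. Venetoclax and ruxolitinib differed on day 3 by 2.28 for Igll1, 2.06 for Rag1, 1.68 for Gzma, 1.39 for Pax5, -1.31 for H2-DMb2 and -0.78 for Isg20 on the same scale.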

How the results depend on the processing

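Of 63 genes followed between venetoclax and both vehicles, 50 kept their sign, 44 of them in each of 22 alternatives and 6, which a stricter filter removed, in 21, 7 of which left out 1 mouse. With total count scaling 3 genes passed, 59 were lower and 2 higher at an unadjusted p under 0.05. The values were -0.09 for Rsad2, -0.04 for Oas2, -0.19 for Isg15, -0.12 for Tap1, -0.06 for Ifna1 and -0.01 for Mapk14, and the medians -0.22 for BCL-2 and apoptosis, -0.07 for Toll-like receptor, -0.20 for JAK-STAT, -0.28 for complement and -0.20 for NF-kB genes. All housekeeping probes gave 68 higher genes and 24 lower ones, medians of 0.22 for Toll-like receptor and 0.06 for NF-kB genes, and 0.04 for Klrb1. Higher genes numbered 15 with limma and 3 against the ruxolitinib vehicle alone, and limma after background subtraction gave 15 lower and 8 higher. Isg15 was -0.01 with DESeq2, -0.07 with limma and -0.06 after background subtraction, and Klrb1 0.03 and 0.13 with the last 2. Against the venetoclax vehicle alone H2-Dma was 0.08, Tap1 -0.02, Ifna1 -0.10, complement genes 0.18 and NF-kB genes -0.18, and against the ruxolitinib vehicle alone Rsad2 was -0.22 and Isg15 -0.30. The stricter filter gave 0.01 for NF-kB genes. Against untreated mice 62 genes were lower and 14 higher, with Pax5 0.32, Xcl1 -0.16, Rsad2 -0.35, Oas2 -0.01, Isg15 -0.76, Ifna1 -1.28, Casp8 -0.06, Cd9 -0.03 and Eng 0.20, and medians of -0.35 for interferon-inducible, -0.14 for Toll-like receptor, -0.60 for chemokine, -0.36 for complement, -0.13 for TNF and -0.12 for NF-kB genes. The cause of these shifts was not tested.

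With the replicate number as a block 0 genes passed and 15 were higher, the Toll-like receptor median was 0.02 and Ifna1 was -0.25. Same-numbered venetoclax and vehicle mice correlated at -0.46 to 0.05 in their deviations and same-numbered mice of the 2 vehicles at 0.53. With 2 mice in each vehicle group both pairs give this value by construction, so it counts once. The numbers were not taken to pair the mice, since not every pair was over 0.1. The block lowered the neutrophil genes at an unadjusted p under 0.05 from 8 to 1.

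Leaving out 1 mouse gave 0 to 3 genes passed, 7 to 61 higher and 24 to 34 lower. Log2 values ranged from -0.61 to 0.06 for Pax5, -0.23 to 0.01 for H2-Dma, -0.46 to 0.23 for Klrb1, -0.10 to 0.40 for Rsad2, -0.21 to 0.20 for Isg15, -0.14 to 0.42 for Ifna1 and -0.15 to 0.12 for Tap1, and medians from -0.19 to 0.10 for complement, -0.10 to -0.03 for NF-kB and 0.03 to 0.17 for Toll-like receptor genes. Between days 3 and 1 it gave 0 to 1 genes, and between the drugs 2 to 8. Between days 3 and 1, 2 genes passed against the venetoclax vehicle alone (Cd36 and Rsad2) and 2 without the lanes under 30000 counts (1 of them Xcl1), an alternative chosen after seeing the data. Between days 3 and 7, 0 passed with total count scaling or limma, and between the drugs 3 with limma (Igll1, Rag1 and Gzma). The depth limits genes near background, such as Cd8a, Ccr6 and Klrg1.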
